A study of Rattus norvegicus with 6 samples.

Results

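A set of 6 genes that stand for glycolysis and the response to low oxygen was followed in cultured rat mesenchymal stem cells, which grow attached to the dish and can become bone-forming cells. They were Slc2a1 (ENSRNOG00000007284), Hk2 (ENSRNOG00000006116), Gapdh (ENSRNOG00000018630), Pgk1 (ENSRNOG00000058249), Ldha (ENSRNOG00000013009) and Vegfa (ENSRNOG00000019598), picked by identifier from the 30560 genes of the deposited table. All 6 had a mean of at least 1 FPKM and so entered the test. FPKM is the number of reads on a gene divided by its length and by the reads counted in the library, so it allows levels of different genes to be set side by side. The table holds no gene names, and the reference table pairs 0 of its 47357 genes with an Ensembl identifier. The names are those given with the identifiers when the set was chosen, and the check made here was of length. The lengths worked out from the FPKM values, 2361, 3573, 1964, 1723, 1776 and 2591 nt in the order above, could hold the coding sequence of the named protein, from its textbook size, in 6 of 6 cases. This does not single out the gene.

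RNA was sequenced in 2 groups of 3 samples, both under osteogenic differentiation at passages 3 to 5. The cells came from femoral marrow of rats of unstated strain and age. One group (siS100A16) was transfected with an siRNA against the calcium-binding protein S100A16, and the other (siNC) with a scrambled siRNA. Such RNAs are short duplexes that direct the breakdown of matching transcripts. How many siRNA sequences were used, and whether samples came from separate animals or cultures, is not stated, so the p-values describe variation among these samples only, and it may be technical. The library totals by which FPKM divides were 7135826 to 8059327 reads in siNC and 5387539 to 6937001 in siS100A16. Genes above 0 numbered 17895 to 18038 in siNC and 15778 to 16609 in siS100A16. On the log2 scale the median SD of all tested genes was 0.17 in siNC and 0.37 in siS100A16, while the main test uses a single variance per gene for both groups. Silencing of S100A16 and the markers of stromal, blood and bone cells were not checked, since no other identifier could be named.

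Glycolysis breaks glucose down to pyruvate in the cytoplasm and yields ATP without oxygen. Glucose enters through Slc2a1 (GLUT1) and is phosphorylated by hexokinases such as Hk2. Gapdh and Pgk1 catalyse successive steps in the later part of the pathway, and Ldha turns pyruvate into lactate, which regenerates the NAD+ that Gapdh uses. When oxygen is low, the transcription factor HIF-1 raises many genes of this pathway together with Vegfa, the growth factor that draws blood vessels into tissue, including growing bone. Gapdh is also widely used as a reference transcript, against which others are expressed.

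The transcripts of 2 enzymes, Pgk1 and Ldha, were called higher after S100A16 siRNA with deposited values and in all 17 alternative analyses run, which held for none of the other members. Pgk1 was 2.03-fold and Ldha 1.68-fold of siNC in mean FPKM (n = 3 each; limma adjusted p = 0.00461 and 0.00575). Gapdh was 1.45-fold (limma adjusted p = 0.016), a call that was lost with median-of-ratios scaling. With that scaling 2 of the 6 genes were called higher and 0 lower, against 7.52% and 6.66% of all tested genes. Slc2a1, Hk2 and Vegfa did not pass the test, with mean ratios of 1.61, 1.39 and 0.768 and overlapping groups. With deposited values 3 of the 6 genes were called higher and 0 lower, where 16.4% of the 12336 tested genes were called higher and 4.27% lower (limma, Benjamini-Hochberg adjusted p under 0.05). The 3 called genes share a class of 399 tested genes, with 1000 to 2000 nt and a mean of at least 100 FPKM. In that class 56.6% were called higher. The median log2 difference was 0.58 over the 6 genes and 0.17 over all tested genes, and 0.35 and -0.02 with median of ratios. The 3 called genes had all siS100A16 values above all siNC values, as did 29.3% of tested genes. In bulk RNA a change in the mix of cells and a change in RNA per cell cannot be told apart.

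**Figure D1:**
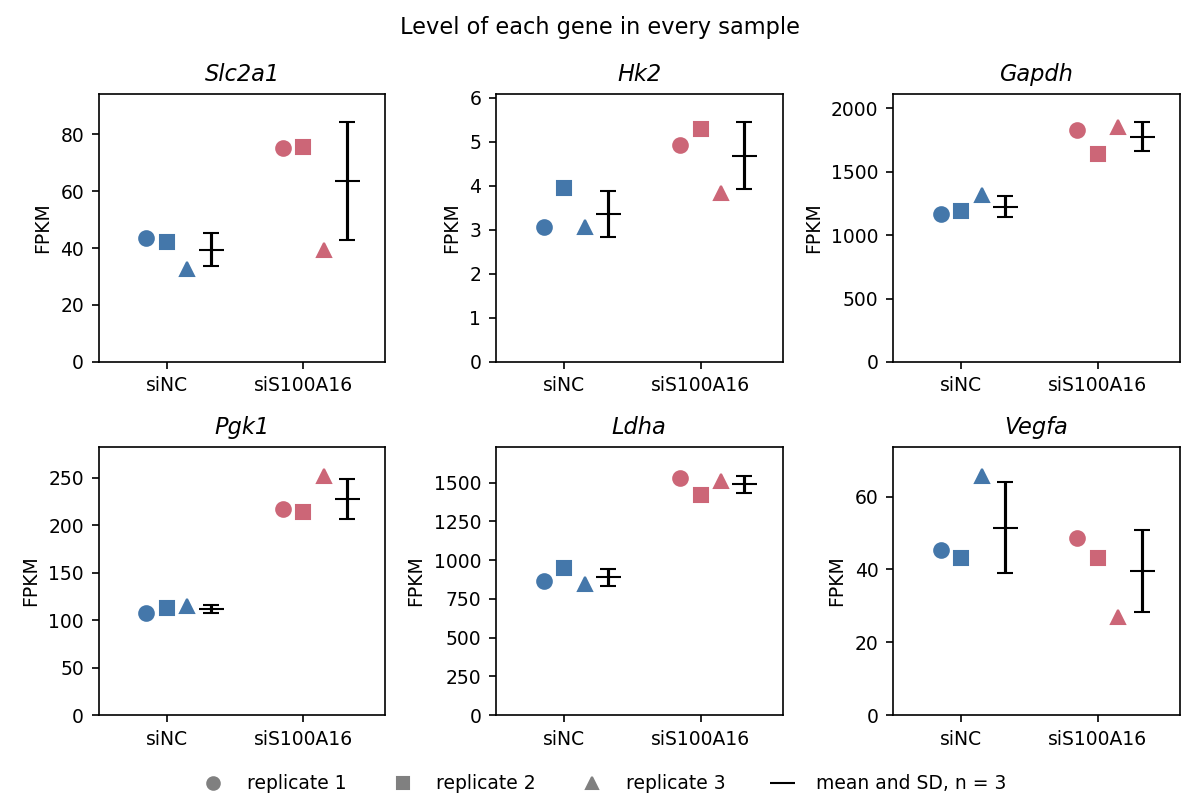
FPKM (y axis, from 0) of each gene in every sample, with symbols for replicates and bars for mean and SD (n = 3 per group). The siNC and siS100A16 values of Gapdh, Pgk1 and Ldha lie apart, while those of Slc2a1, Hk2 and Vegfa overlap.

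The promoters of 4 members are shown because these genes are all tied to the HIF-1 response in textbooks, while Gapdh and Ldha were called higher here and Slc2a1 and Vegfa were not. RefSeq promoter windows (build GRCr8) were matched by symbol for 5 of the 6 genes, and there was none for Pgk1. Vegfa has a second window, at chr9:22460028-22460277 (plus strand), which is not printed. The 250 bases before the transcript start are printed 5′ to 3′ on the gene's strand. Capitals mark the core of the HIF-binding element, ACGTG or GCGTG on either strand, with overlapping matches joined. The windows lie at chr4:159652468-159652717 (minus strand) for Gapdh, chr1:106507842-106508091 (plus) for Ldha, chr5:138002272-138002521 (plus) for Slc2a1 and chr9:22452604-22452853 (plus) for Vegfa.
Gapdh: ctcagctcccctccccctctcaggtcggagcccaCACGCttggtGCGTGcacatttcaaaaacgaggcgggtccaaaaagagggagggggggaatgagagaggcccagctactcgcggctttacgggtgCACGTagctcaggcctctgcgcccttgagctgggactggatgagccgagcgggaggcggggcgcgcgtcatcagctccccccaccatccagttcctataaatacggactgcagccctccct
Ldha: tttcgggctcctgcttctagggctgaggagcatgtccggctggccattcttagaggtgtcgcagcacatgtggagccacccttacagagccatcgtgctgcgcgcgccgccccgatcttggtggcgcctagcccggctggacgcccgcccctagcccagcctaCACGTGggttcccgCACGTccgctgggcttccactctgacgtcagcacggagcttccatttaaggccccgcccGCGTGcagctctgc
Slc2a1: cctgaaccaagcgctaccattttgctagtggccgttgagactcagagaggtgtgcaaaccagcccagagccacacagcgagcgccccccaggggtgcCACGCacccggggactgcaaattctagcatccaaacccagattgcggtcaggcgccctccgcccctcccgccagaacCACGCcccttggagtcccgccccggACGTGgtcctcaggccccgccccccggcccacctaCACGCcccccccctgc
Vegfa: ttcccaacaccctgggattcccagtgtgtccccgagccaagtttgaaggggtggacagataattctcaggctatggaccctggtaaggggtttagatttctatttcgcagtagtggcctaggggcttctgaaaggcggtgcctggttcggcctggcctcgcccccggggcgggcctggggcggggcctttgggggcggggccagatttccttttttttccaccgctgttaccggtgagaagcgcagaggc

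The core was found at 3 places in the Gapdh window, 3 in Ldha and 4 in Slc2a1, and at 0 in Hk2 and in both windows of Vegfa. In Ldha, 1 of the 3 is the palindrome CACGTG, from 87 to 82 bases before the start, which is also an E-box and reads as the core on both strands. Another lies 73 to 69 bases before the start. Over all 33469 windows of this length, 36.7% hold the core at least once and 5.59% hold CACGTG on either strand. The share of windows with 3 or more matches was not worked out for any motif, nor was any share by GC content. The GC content was 63.6%, 66.4% and 68.4% in the Gapdh, Ldha and Slc2a1 windows. It was 49.6% in the Hk2 window, 60.4% in the printed Vegfa window and 56% in the second. A TATA box (TATAAA, gene strand) lies 26 to 21 bases before the Gapdh start, and 8.06% of windows hold one. The Ldha and Slc2a1 windows and the printed Vegfa window each hold 3 GC boxes (GGGCGG, either strand), and the second Vegfa window holds 0. At least 1 GC box is present in 30.5% of windows. Such a match describes letters and shows no binding, and sites outside these windows were not searched. Among the genes with the core, Gapdh and Ldha were called higher with deposited values and Slc2a1 was not called.

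The glucose transporter Slc2a1 reached higher levels in part of the siS100A16 samples. It stood at 43.5, 42.0 and 32.7 FPKM in siNC replicates 1 to 3 and at 75.2, 75.6 and 39.5 FPKM in siS100A16 replicates 1 to 3. The siS100A16 replicates 1 and 2 lay far above all siNC samples, but replicate 3 lay among them. The log2 difference was 0.62 (SE 0.27, 95% confidence interval 0.01 to 1.24, limma adjusted p = 0.135). Its reads numbered 502 to 1232 per sample. With median-of-ratios scaling the log2 difference was 0.40 (limma adjusted p = 0.352), and with quantile normalization 0.22 (limma adjusted p = 0.599). Without siS100A16 replicate 1, and likewise without replicate 2, it was 0.47. Only 1 of 17 alternatives called Slc2a1. Without siS100A16 replicate 3 the log2 difference was 0.93 and passed the test (limma adjusted p = 0.028). That library also had the fewest reads, 5387539; the part of depth in this was not tested. On the log2 scale the SD of Slc2a1 was 0.22 in siNC and 0.53 in siS100A16, against medians of 0.15 and 0.26 for the 2661 genes with a mean of 20 to 100 FPKM.

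Hexokinase 2, the first enzyme of the pathway, had the lowest level of the set. Hk2 measured 3.07, 3.96 and 3.06 FPKM in siNC and 4.92, 5.30 and 3.84 FPKM in siS100A16. The lowest siS100A16 value, again replicate 3, fell below the highest siNC value, so the groups overlapped. These values came from 74 to 122 reads, for which counting alone gives an error of 9.05% to 11.6% per sample. The SD between samples was 15.4% of the mean in siNC and 16.1% in siS100A16. The log2 difference was 0.38 (SE 0.23, 95% confidence interval -0.15 to 0.92, limma adjusted p = 0.285). The interval covers both no change and the 0.75 found for Ldha. Among the 4572 genes with a mean of 1 to 5 FPKM, 2.1% were called higher.

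Gapdh, the most abundant of the 6, was higher in each siS100A16 sample than in any siNC sample. Its values were 1163, 1194 and 1320 FPKM in siNC and 1831, 1644 and 1852 FPKM in siS100A16. The groups did not overlap, and the SD was 6.76% and 6.46% of the mean. With deposited values its log2 difference was 0.53 (SE 0.11, 95% confidence interval 0.27 to 0.80, limma adjusted p = 0.016). With median-of-ratios scaling, which sets the typical gene to no change, the difference was 0.30 and missed the threshold (limma adjusted p = 0.113). The call was also lost without siNC replicate 1 or 2 and without siS100A16 replicate 1 or 3 (limma adjusted p = 0.065, 0.0892, 0.0535 and 0.0617). Its place by mean FPKM among tested genes was 37 in siNC and 34 in siS100A16.

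Pgk1, which makes ATP in the step after Gapdh, showed the largest difference of the set. It measured 108, 113 and 115 FPKM in siNC and 217, 213.9 and 253 FPKM in siS100A16. Its lowest siS100A16 value was thus well above its highest siNC value. The log2 difference was 1.01 (SE 0.13, 95% confidence interval 0.72 to 1.31, limma adjusted p = 0.00461). It was larger than or equal to that of 92.5% of tested genes, and with median-of-ratios scaling, at 0.78, than or to that of 91.6%. With quantile normalization the difference was 0.52, larger than or equal to that of 80.8% of tested genes. By mean FPKM Pgk1 took place 597 in siNC and 401 in siS100A16.

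Ldha, the enzyme that makes lactate, was the second most abundant member. It stood at 867, 951 and 845 FPKM in siNC and at 1529, 1422 and 1512 FPKM in siS100A16. The groups did not overlap and were tight, with an SD of 6.30% of the mean in siNC and 3.89% in siS100A16. The log2 difference was 0.75 (SE 0.11, 95% confidence interval 0.50 to 1.00, limma adjusted p = 0.00575). With median-of-ratios scaling it was 0.51 (limma adjusted p = 0.0309). Gapdh and Ldha together took 0.398% ± 0.0141 of the siNC reads and 0.613% ± 0.0326 of the siS100A16 reads (± SD, 3 samples each; two-sided exact permutation p = 0.1, the lowest that 3 against 3 allows).

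For these 3 enzymes, reads from near-identical copies cannot be told apart here. The RefSeq table lists 81 pseudogenes named after Gapdh, 30 after Ldha and 8 after Pgk1, and 0 after the other members. How reads that match several places were assigned is not given in the sources used here.

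Vegfa, the secreted factor of the set, was the only member whose mean was lower after S100A16 siRNA. It measured 45.3, 43.2 and 65.8 FPKM in siNC and 48.5, 43.0 and 26.9 FPKM in siS100A16. Replicates 1 and 2 of both groups lay between 43.0 and 48.5 FPKM, and the difference of means came from a high siNC replicate 3 and a low siS100A16 replicate 3. The log2 difference was -0.39 (SE 0.26, 95% confidence interval -0.98 to 0.20, limma adjusted p = 0.324). Without siS100A16 replicate 3 it was -0.14, and without siNC replicate 3 it was -0.20. Vegfa was read 375 to 1374 times per sample, a counting error of at most 5.16%, which is smaller than its SD of 24.3% of the mean in siNC and 28.5% in siS100A16.

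**Figure D2:**
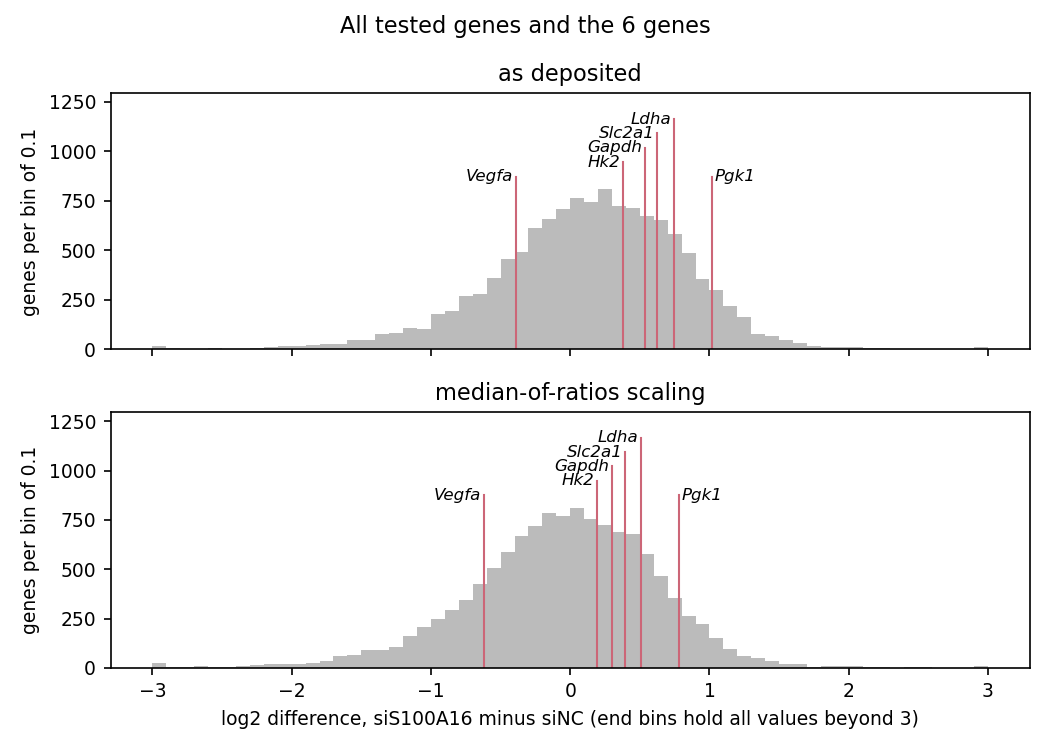
Number of tested genes (y axis) per bin of log2 difference, siS100A16 minus siNC (x axis), with values as deposited (top) and with median-of-ratios scaling (bottom). Red lines mark the 6 genes, of which Pgk1 lies farthest to the right at 1.01 and 0.78 and Vegfa is the only one to the left of zero at -0.39 and -0.62.

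Level and length bear on how these calls compare with the background. The shares by class given here are of calls with deposited values, and none were worked out with median-of-ratios scaling. The 3 called members were the 3 shortest and most abundant of the set. Of 399 tested genes with 1000 to 2000 nt and a mean of at least 100 FPKM, 56.6% were called higher, and their median log2 difference was 0.60. By level alone the background differs. Of the 53 genes with a mean of at least 1000 FPKM, where Gapdh and Ldha lie, 32.1% were called higher and 30.2% lower, and the median log2 difference was 0.10. Of the 768 genes from 100 to 1000 FPKM, where Pgk1 lies, 53.1% were called higher, with a median of 0.59. Pgk1 (1.01) and Ldha (0.75) lay above the median of each class that holds them, while Gapdh (0.53) lay below that of the class by length and level and above that of the class by level alone. Of 738 genes with 2000 to 3000 nt and 20 to 100 FPKM, the class of Slc2a1 and Vegfa, 34.7% were called higher, with a median of 0.41. Slc2a1 (0.62) lay above that median and Vegfa (-0.39) below it. The part of length and level in the members' values was not tested beyond the removal of the length trend, which left Pgk1 at 0.70 and Ldha at 0.44, both called (limma adjusted p = 0.0183 and 0.0403), and Gapdh at 0.25, not called (limma adjusted p = 0.153).

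**Figure D3:**
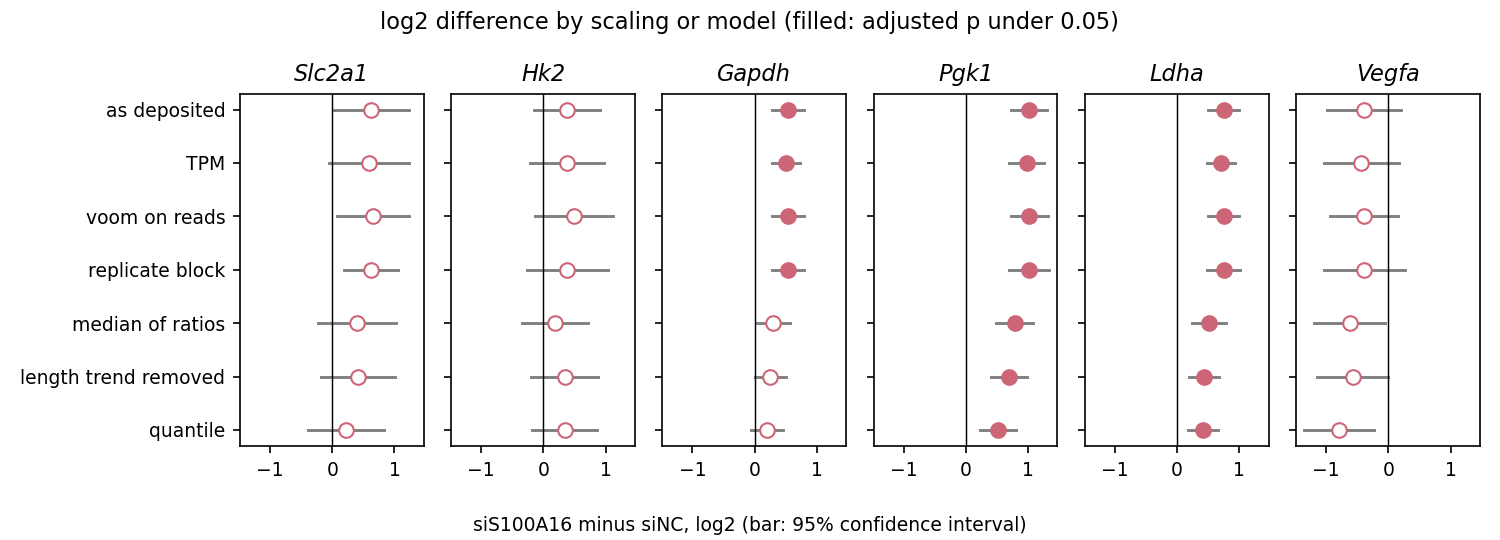
Log2 difference, siS100A16 minus siNC (x axis), of each gene (panels) under 7 scalings or models (rows). Bars are 95% confidence intervals and filled circles have a limma adjusted p under 0.05. Pgk1 and Ldha are filled in each row, Gapdh in the upper 4 rows, and Slc2a1, Hk2 and Vegfa in none.

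Ratios between members within a sample do not change when each library is scaled by a single factor, and 15 pairs were compared. Quantile normalization and length-trend removal act unequally on genes, and the ratios were not worked out after them. In 9 pairs the groups did not overlap (two-sided exact permutation p = 0.1 each, the lowest that 3 against 3 allows, and 0.167 adjusted over the 15 pairs). When the 11384 tested genes above 0 in all samples were set against a member in the same way, between 26.8% and 61.7% did not overlap, depending on the member. With this permutation test no pair can pass a threshold of 0.05. Each pair shows unequal change and not which gene changed.

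Pgk1 and Ldha were higher relative to Gapdh after S100A16 siRNA. FPKM of Gapdh was 10.8, 10.5 and 11.5 times that of Pgk1 in siNC and 8.44, 7.68 and 7.34 times in siS100A16. All 3 siS100A16 ratios were below all siNC ratios, a log2 difference of -0.49 (SE 0.07). Gapdh over Ldha was 1.34, 1.25 and 1.56 in siNC and 1.20, 1.16 and 1.23 in siS100A16, again without overlap, a log2 difference of -0.21 (SE 0.10). Without siNC replicate 3 this difference was -0.12. Of 11384 tested genes above 0 in all samples, 10.1% had a ratio to Gapdh that was higher in siS100A16 without overlap. This share covers genes of all lengths and levels and was not worked out by class. For genes with 1000 to 2000 nt and at least 100 FPKM the median log2 difference was 0.60, above the 0.53 of Gapdh. Ldha over Pgk1 was lower in siS100A16 by a log2 difference of -0.28 (SE 0.09), also without overlap. The same was true of the ratio to Pgk1 for 60.3% of the 11384 genes.

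Relative to Vegfa, all 5 other members were higher in siS100A16, without overlap in 5 of 5 pairs. Gapdh was 25.7, 27.7 and 20.1 times Vegfa in siNC and 37.8, 38.2 and 68.9 times in siS100A16. The log2 differences of the 5 ratios were 1.42 for Pgk1 (SE 0.38), 1.14 for Ldha (SE 0.36), 1.04 for Slc2a1 (SE 0.33), 0.93 for Gapdh (SE 0.32) and 0.88 for Hk2 (SE 0.32). With 1 sample left out, the lowest values were 1.09, 0.88, 0.72, 0.65 and 0.62 in that order. Each lowest value came without replicate 3 of siNC or of siS100A16. These 5 pairs share Vegfa and are not independent. A higher ratio without overlap also held for 39.8% of the 11384 genes set against Vegfa, so it was common. In siS100A16 replicate 3, Slc2a1, Hk2 and Vegfa were each at the lowest value of their group, and Gapdh and Pgk1 at the highest. The ratio of Hk2 to Slc2a1 overlapped between groups, with a log2 difference of -0.16 (SE 0.22, exact two-sided permutation p = 0.6) that ran from -0.33 (without siS100A16 replicate 3) to -0.05 (without siS100A16 replicate 1) when single samples were left out.

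**Figure D4:**
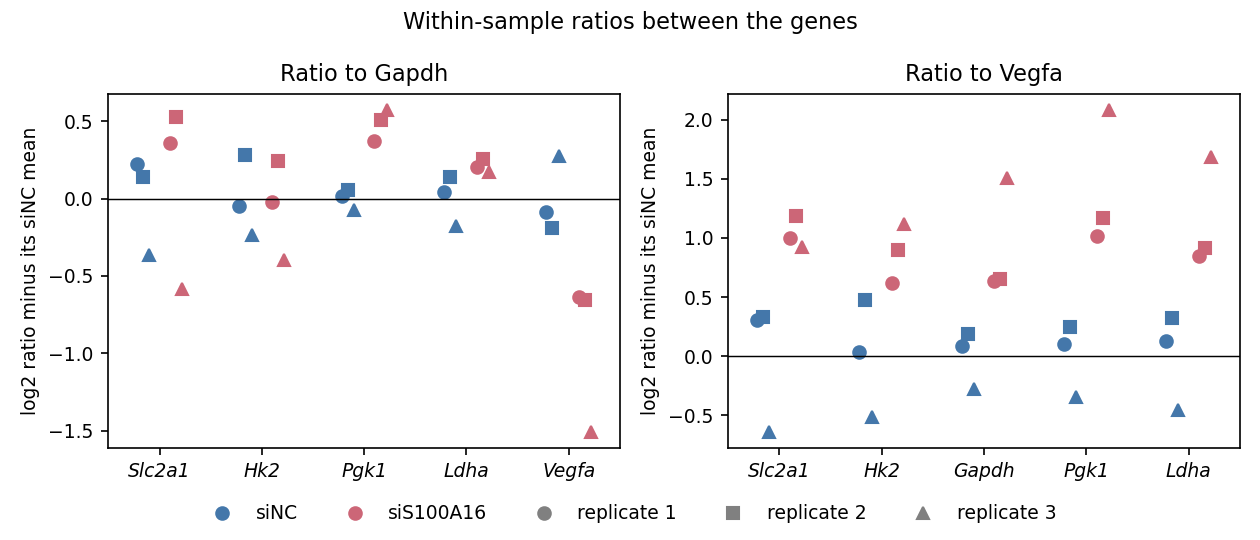
Within-sample log2 ratio of each gene to Gapdh (left) and to Vegfa (right), with the mean of the siNC samples set to 0 (y axis). Points are samples, colours groups and symbols replicates. Pgk1 and Ldha lie above the siNC values in the left panel, and all 5 genes do so in the right panel.

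The order of levels was nearly the same in both groups. In siNC it ran Gapdh, Ldha, Pgk1, Vegfa, Slc2a1, Hk2, and in siS100A16 Slc2a1 and Vegfa changed places. These neighbours overlapped in both groups, so their order is not settled, whereas no other neighbours overlapped. The step from Ldha to Pgk1 was 7.93-fold in siNC and 6.53-fold in siS100A16 in mean FPKM. Slc2a1 stood 11.7-fold above Hk2 in siNC.

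The profiles over the 6 samples were compared by the root mean square difference of log2(FPKM + 1) after centring each gene. Ldha and Gapdh had the smallest difference of the 15 pairs (0.14), followed by Ldha and Pgk1 (0.16). Of the 12335 other tested genes, 317 were closer to Pgk1 than Ldha was, and 359 were closer to Ldha than Gapdh was. Seen from the other gene of each pair, 578 were closer to Ldha than Pgk1 was, and 632 were closer to Gapdh than Ldha was. For Slc2a1 the nearest member was Hk2 (0.26), with 376 genes closer. For Hk2 the nearest was Gapdh (0.22), and 2092 genes were closer to Hk2 than Slc2a1 was. For Vegfa the nearest was Hk2 at 0.49, with 4498 genes closer. No gene outside the set could be named.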

How the data were processed

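The authors deposited 1 table of FPKM values for 30560 genes in 6 columns, without pooling. HISAT2 2.1.0 and DESeq2 1.14.1 are named, without a role, per the submitters' processing notes. These also name the mouse build mm10, while all 30560 identifiers carry the Ensembl rat prefix. The counting step is not given in the sources used here. Control columns were assigned to siNC and experimental columns to siS100A16, by number.

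Whole reads, gene lengths and library totals were worked out from the FPKM values. Where reads and length of a gene share a factor, both may come out too small by it. Counting errors cover counting alone. limma 3.58.1 in R 4.3.3 tested log2(FPKM + 1) of 12336 genes with a mean of at least 1 FPKM, with group as the only term, a variance prior that follows the level, two-sided, and Benjamini-Hochberg adjustment over all tested genes. Fold changes on this scale understate those of low genes. Ratios of means are of FPKM without a pseudocount. Permutation tests used scipy 1.17.1. The recovery of reads and the limma fit were tested on simulated data. The members, lists and alternatives were chosen with earlier results of these data known. The rule for named genes took the 6 members, pathway genes with a symbol and the most similar gene with a symbol. The 2 pathway lists, the cell type markers and S100A16 could not be matched and were not analysed here. Samples with the same number were not treated as pairs, as their deviations from the group means correlated at -0.03, 0.05 and 0.04.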

Additional observations from a re-analysis of the deposited data

How the results depend on the processing

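All 6 genes kept the sign of their difference in the alternatives run, 17 each and 16 for Hk2, which a minimum mean of 5 FPKM removes. Pgk1 (log2 0.52 to 1.06) and Ldha (0.41 to 0.80) stayed called in 17 of 17. Gapdh stayed called in 8 of 17. It was lost with no filter (0.53, limma adjusted p = 0.0983), with a variance prior without trend (0.53, limma adjusted p = 0.0711), under median of ratios (0.30) and quantile normalization (0.19), and after length-trend removal (0.25). Leaving out 1 sample moved Gapdh between 0.50 and 0.59, and Slc2a1 between 0.47 and 0.93, where it was called without siS100A16 replicate 3. Vegfa and Hk2 were called in 0 alternatives (Vegfa -0.79 to -0.14, lowest limma adjusted p = 0.0669). For the ratios, the alternatives were a pseudocount of 1 and leaving out single samples. These 105 values moved by less than the larger group SD. Ratios after quantile normalization or length-trend removal were not worked out. With 1 sample left out, 4 of the 15 ratio differences changed sign, all of pairs whose groups overlap: Gapdh/Slc2a1 (-0.44 to 0.11), Ldha/Slc2a1 (-0.21 to 0.30), Gapdh/Hk2 (-0.11 to 0.21) and Pgk1/Slc2a1 (-0.0032 to 0.59). Pgk1/Hk2, whose groups do not overlap, was 0.54 with all samples and 0.33 without siS100A16 replicate 3.

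Over all genes, 2556 genes were called, against 1563 under quantile normalization, 1407 after length-trend removal and 552 to 3182 with 1 sample left out. Higher calls numbered 2029, against 928 under median of ratios, 705 under quantile normalization, 753 after length-trend removal and 459 to 2198 with 1 sample left out. Lower calls numbered 527, against 821 under median of ratios, 858 under quantile normalization and 93 to 984 with 1 sample left out. Median of ratios moved the median log2 difference of all genes from 0.17 to -0.02. Fits with 1 sample left out have fewer samples, and for the other changes the cause was not tested. A fit with a replicate block called 2246 genes and changed no call among the 6 genes. The planned pathway lists were not run.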
